A study of Mus musculus with 8 samples.

Results

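Steroid hormone synthesis and local metabolism was followed through 37 listed genes, which cover the entry of cholesterol into mitochondria, the enzymes that build steroid hormones, and the enzymes that interconvert, conjugate or break them down inside a tissue. The members were found by gene symbol. A row was present for 34 of them among the 19884 genes of the table, while expression of Hsd17b8, Hsd3b7 and Sts was not analysed here. RNA was sequenced from 4 whole uteri and 4 whole brains of pregnant C57BL/6J wild-type mice on gestation day 4. The females were adult, 6 to 10 weeks old, untreated, and had been mated with fertile males. Each library held the RNA of 1 animal's whole organ, depleted of ribosomal RNA. All animals were pregnant, so no group without pregnancy is part of the comparison, and a whole organ mixes its cell types.

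Steroid hormones are made from cholesterol, which is carried to the inner mitochondrial membrane, shortened there to pregnenolone, and converted further by P450 enzymes and hydroxysteroid dehydrogenases in the ovary, testis, adrenal and placenta. Target tissues set their own exposure with a second layer of enzymes, which switch a circulating hormone on or off before it reaches its receptor. The mouse uterus around implantation responds to ovarian progesterone and estradiol, and the brain is known both for local synthesis of neurosteroids and for control of glucocorticoid access.

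The uterus libraries held 35394603 to 40254254 counts and the brain libraries 40115616 to 47790178. Levels are given as CPM, counts relative to the TMM-scaled library size, and each log2 fold change sets uterus over brain and stands with its standard error (SE). Across genes, Pearson correlations of log2 CPM were 0.982 to 0.993 between libraries of 1 organ and 0.536 to 0.558 between organs. Summed markers of uterine epithelium came to 677 to 821 CPM in uterus, against 10.8 to 15.1 CPM in brain. Summed neuronal markers came to 2.19 to 4.85 CPM in uterus, against 5908 to 6122 CPM in brain, which matches the organ labels. Counts of 2 were more frequent than counts of 1 in each library (503 to 619 genes against 212 to 249), so low counts are not single independent reads and every limit drawn from them covers counting error only.

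Promoters are shown for 4 members on which the differences or the spread between animals below turn: Cyp1b1 and Akr1c14, the members that varied most between uteri among those with a mean of 1 CPM or more, and Hsd11b1 and Cyp11a1, which were higher in brain. Each is the 250 bases before the annotated start, from RefSeq on GRCm38.p6, written 5′ to 3′ on the strand of the gene, with capitals marking any match to AAGGTCA (a nuclear receptor core site), TATAAA (the TATA box), GGGCGG (the GC box) or GCGTG (the core of the dioxin response element), on either strand. Their positions are chr17:79715062-79715311 on the minus strand for Cyp1b1, chr13:4059341-4059590 on the plus strand for Akr1c14, chr1:193242361-193242610 on the minus strand for Hsd11b1 and chr9:58014702-58014951 on the plus strand for the second annotated start of Cyp11a1. The windows of Akr1c14, Hsd11b1 and Cyp11a1 lie inside the gene spans given below, so starts farther upstream are not shown.
Cyp1b1: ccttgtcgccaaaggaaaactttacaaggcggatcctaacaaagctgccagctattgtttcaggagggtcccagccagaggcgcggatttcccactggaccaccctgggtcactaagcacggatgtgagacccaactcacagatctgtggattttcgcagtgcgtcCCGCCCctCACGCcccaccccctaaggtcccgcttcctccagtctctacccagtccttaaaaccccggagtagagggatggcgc
Akr1c14: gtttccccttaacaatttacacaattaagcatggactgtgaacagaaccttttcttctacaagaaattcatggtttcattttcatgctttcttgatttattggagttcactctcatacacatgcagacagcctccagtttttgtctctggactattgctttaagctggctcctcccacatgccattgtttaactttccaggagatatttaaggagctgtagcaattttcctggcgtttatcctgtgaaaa
Hsd11b1: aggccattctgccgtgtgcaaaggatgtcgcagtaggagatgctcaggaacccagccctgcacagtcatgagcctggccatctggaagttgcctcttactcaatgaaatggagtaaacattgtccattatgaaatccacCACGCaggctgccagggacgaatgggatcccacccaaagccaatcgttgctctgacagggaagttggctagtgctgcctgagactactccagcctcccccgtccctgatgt
Cyp11a1: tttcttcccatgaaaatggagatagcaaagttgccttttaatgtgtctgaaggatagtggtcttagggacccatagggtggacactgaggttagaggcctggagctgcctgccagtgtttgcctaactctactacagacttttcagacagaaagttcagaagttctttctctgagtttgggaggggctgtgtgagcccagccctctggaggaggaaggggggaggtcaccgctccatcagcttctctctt
In Cyp1b1, which encodes an estradiol hydroxylase known as a target of the aryl hydrocarbon receptor, the reverse complement of GGGCGG lay 84 bases and that of GCGTG 76 bases before the start. In Hsd11b1 the reverse complement of GCGTG lay 111 bases before the start. None of the 4 motifs was matched in the windows of Akr1c14 and Cyp11a1, which says only that these letters are not there. The matches in these windows do not overlap each other. Of the 26 listed genes with an entry, Hsd3b7 included, 1 held AAGGTCA, 2 held TATAAA, 13 held GGGCGG and 9 held GCGTG in the 250 bases before a start. Among all 32851 promoters, each counted singly, the shares were 4.08%, 12.4%, 32.7% and 28.2% in the same order. A listed gene was counted if any of its annotated starts matched, so the unit differs from that of these shares. A match is a description of the letters and not a site shown to be used.

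Of the 34 members, 22 passed the filter on low counts and were tested, and 12 were not. Of those tested, 20 reached the filter's level of 0.249 CPM in all libraries of both organs, Hsd11b2 passed through its uterus libraries alone and Cyp11a1 through its brain libraries alone. In uterus 18 members reached 1 CPM in all 4 libraries, in brain 19 did, and 17 did so in both organs. The 12 members left out of the test were Cyp17a1, Cyp19a1, Hsd3b1, Hsd3b6, Hsd17b2, Hsd17b3, Hsd17b6, Hsd17b13, Hsd17b14, Srd5a2, Akr1c6 and Sult1e1. Among them are the enzymes that define gonadal and adrenal hormone production. The plot of all members by library shows this split between well expressed and nearly absent genes.

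**Figure D1:**
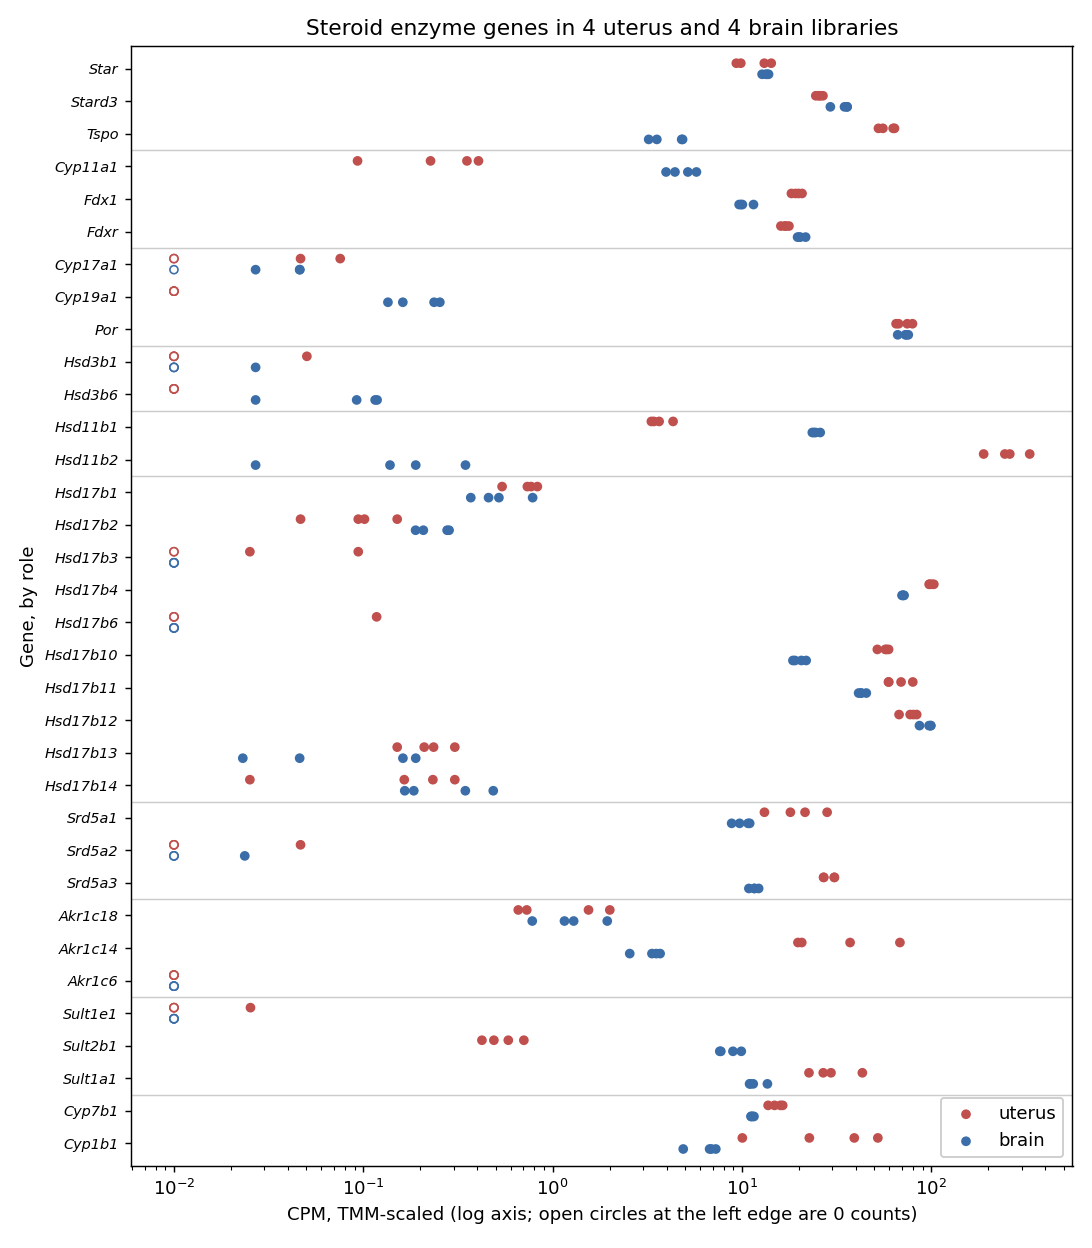
CPM of the 34 members in each library on a log axis, with 4 uterus libraries (red) above 4 brain libraries (blue) for each gene, grouped by role and with open circles at the left edge for 0 counts. Hsd11b2 lies between 189 and 331 CPM in uterus and between 0.0270 and 0.347 CPM in brain, while Cyp17a1, Hsd3b1, Akr1c6 and Sult1e1 lie at or near 0 in both organs.

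The comparison of the organs asks which steps of steroid handling each tissue expresses above the other. By edgeR's quasi-likelihood F test at an adjusted p of 0.05, 12 of the 22 tested members were higher in uterus, where 43.5% of all 16074 tested genes were, and 6 were higher in brain, where 43.6% were, which makes 18 members, against 87.0% of all genes, in either direction. With upper-quartile scaling or library sizes alone the split was 14 higher in uterus and 3 in brain, where upper-quartile scaling put 8182 of all genes higher in uterus and 5966 in brain. Those scalings move the median log2 fold change of all genes to 0.27, against 0.01 with TMM, so calls close to 0 depend on the scaling. Against a 2-fold difference, 7 members were higher in uterus (23.5% of all genes) and 3 in brain (25.8% of all genes), 10 in all (49.3% of all genes). The 7 were Tspo, Hsd11b2, Hsd17b10, Srd5a3, Akr1c14, Sult1a1 and Cyp1b1, and the 3 were Cyp11a1, Hsd11b1 and Sult2b1. Among these, Hsd11b2 and Cyp11a1 had passed the filter through 1 organ alone, and Sult2b1 overlaps Lmtk3 as given below. All uterus libraries lay above all brain libraries for the same 12 members, against 42.0% of all genes. All brain libraries lay above all uterus libraries for the same 6, against 42.0% of all genes, so the organs did not overlap for 18 tested members and for 84.1% of all genes. The median log2 fold change was 0.46 over the tested members and 0.01 over all genes, and the median absolute change was 0.97 over the members and 1.16 over all genes. The members called higher in brain were a smaller share than among all genes, a difference that was not tested, and the description below goes by gene. In whole organs fewer cells that express a gene and less RNA per cell cannot be told apart.

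**Figure D2:**
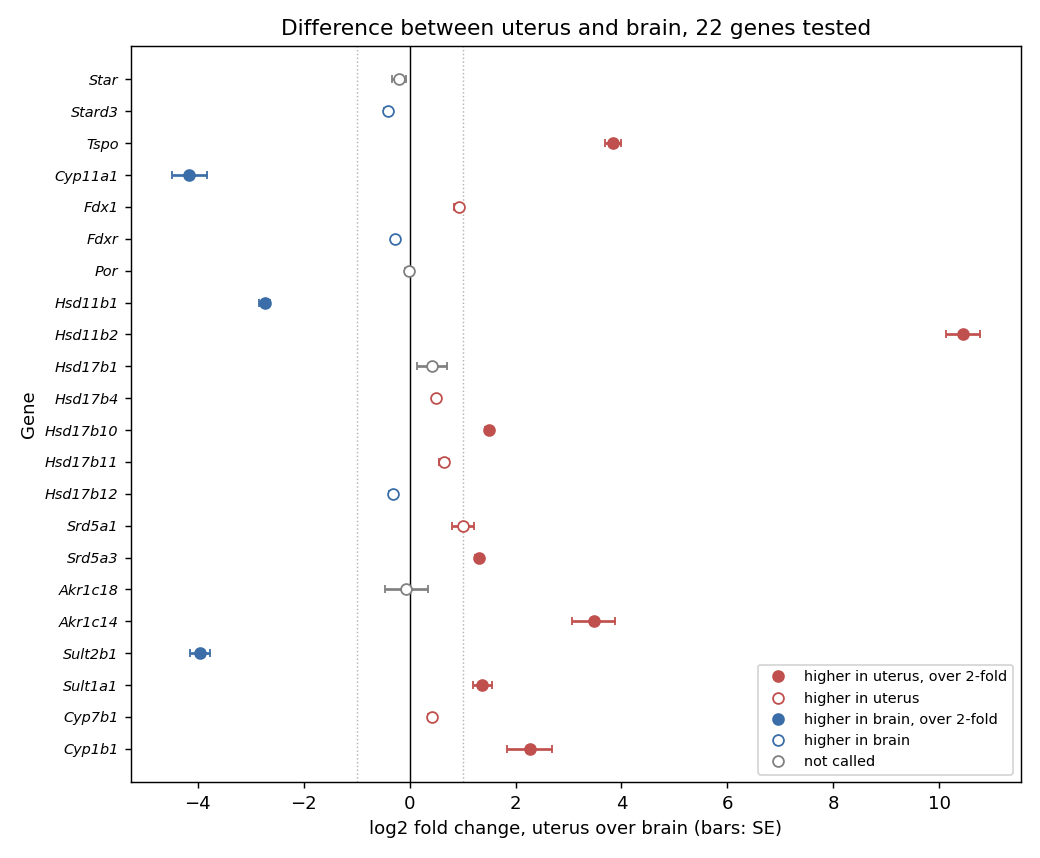
Log2 fold change, uterus over brain, of the 22 tested members with SE bars, from edgeR, where filled circles passed the test against a 2-fold difference and the dotted lines mark that size. Hsd11b2 stands at 10.45, beyond Tspo at 3.84 and Akr1c14 at 3.48, and Cyp11a1 at -4.16 and Sult2b1 at -3.96 lie farthest on the brain side.

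Cholesterol entry differed between the organs mainly in Tspo, a protein of the outer mitochondrial membrane that binds cholesterol and whose need for steroid synthesis is disputed. Tspo (chr15:83563592-83574203) had 63.9, 62.9, 52.6 and 55.5 CPM in uterus, against 4.86, 3.55, 4.81 and 3.22 CPM in brain. Every uterus library lay above every brain library, and the log2 fold change was 3.84 ± 0.14 (SE; edgeR adjusted p = 1.76e-09). Its exons overlap Mcat on the opposite strand over 53 bases, and Mcat itself had 17.2 to 19.0 CPM in uterus and 12.7 to 14.7 CPM in brain.

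Star, which delivers cholesterol to the inner mitochondrial membrane and limits the rate of synthesis in gonad and adrenal, was measured in both organs. It had 9.34, 13.1, 14.3 and 9.86 CPM in uterus, against 13.8, 13.6, 12.8 and 13.4 CPM in brain. The uterus libraries spread on both sides of the brain libraries, and the log2 fold change of -0.20 ± 0.14 did not pass (edgeR adjusted p = 0.198). Without uterus library 3, the highest, it was -0.31 with an edgeR adjusted p of 0.0448, so 1 library decides the call.

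Stard3, a relative of Star that sits on late endosomes and moves cholesterol there, had 25.5, 24.6, 25.9 and 26.8 CPM in uterus, against 29.3, 35.9, 34.8 and 35.9 CPM in brain. Each brain library was above each uterus library, with a log2 fold change of -0.41 ± 0.07 (edgeR adjusted p = 0.000469). That call was lost at -0.15 with upper-quartile scaling and with library sizes alone. Divided by merged exon length, which makes levels of different genes comparable, Tspo took 84.7 ± 1.85% of the summed level of these 3 genes in uterus and 23.4 ± 4.72% in brain (SD, n = 4 each). Stard3 took 11.01 ± 1.14% in uterus and 57.1 ± 4.83% in brain.

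The first committed step showed the opposite pattern. Cyp11a1 (chr9:58006411-58027023), the mitochondrial P450 that cleaves the cholesterol side chain to give pregnenolone, had 0.227, 0.353, 0.406 and 0.0932 CPM in uterus, against 5.75, 4.43, 3.97 and 5.18 CPM in brain. The uterus values rest on 9, 15, 16 and 4 counts, against 213, 192, 172 and 219 counts in brain. No library of one organ reached the other, and the log2 fold change was -4.16 ± 0.34 (edgeR adjusted p = 8.16e-07). Cyp11a1 had passed the filter on low counts through its brain libraries alone. At 1.01 ± 0.164 CPM per kb in brain (SD, n = 4), it ranked 12475 of 16046 genes there. Its exons overlap Gm17322, an annotated noncoding gene of the same strand, over 145 bases.

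The electron carriers of that step were present in both organs. Fdx1, the ferredoxin that passes electrons to mitochondrial P450s, had 20.8, 19.9, 19.2 and 18.3 CPM in uterus, against 9.66, 11.5, 9.89 and 10.05 CPM in brain. The uterus libraries were all higher, with a log2 fold change of 0.93 ± 0.09 (edgeR adjusted p = 2.41e-06), which did not exceed 2-fold (glmTreat in edgeR, adjusted p = 0.936). With upper-quartile scaling it did, at a log2 fold change of 1.18 (edgeR adjusted p = 0.0171), and likewise with library sizes alone at 1.18 (edgeR adjusted p = 0.0157). Fdxr, the reductase that loads ferredoxin, had 16.8, 17.7, 17.04 and 16.1 CPM in uterus, against 20.3, 19.7, 21.7 and 20.01 CPM in brain. Its brain libraries were all higher at a log2 fold change of -0.27 ± 0.07 (edgeR adjusted p = 0.00318), and the call was lost at -0.02 with upper-quartile scaling and at -0.01 with library sizes alone. Both carriers also serve other mitochondrial P450s. Per length, Cyp11a1 made up 0.449 ± 0.229% of the 3 genes in uterus and 8.68 ± 1.49% in brain.

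The microsomal P450s of sex steroid synthesis were close to absent. Cyp17a1, which makes androgen precursors from pregnenolone and progesterone, had 3, 0, 0 and 2 counts in uterus and 1, 2, 2 and 0 counts in brain. Cyp19a1, aromatase, which converts androgens to estrogens, had 0 counts in all 4 uterus libraries, against 5, 11, 7 and 10 counts in brain. Every brain library held aromatase counts and no uterus library did. The brain mean of aromatase was 10.8-fold a floor of 3 counts over the 4 uterus libraries together. That value leaves out the counting error of the brain counts. Its mean in brain was 0.197 ± 0.0574 CPM (SD, n = 4).

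Por, the reductase that supplies electrons to all microsomal P450s, was plentiful. It had 74.6, 67.2, 79.6 and 65.2 CPM in uterus, against 66.5, 74.1, 75.6 and 73.0 CPM in brain. The libraries of the organs overlapped, and the log2 fold change of -0.01 ± 0.07 did not pass (edgeR adjusted p = 0.869). With upper-quartile scaling it became 0.24 and passed with an edgeR adjusted p of 0.0114.

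The enzymes that turn pregnenolone into progesterone were barely measured. Hsd3b1, the main form of mouse gonads and adrenal, had 2, 0, 0 and 0 counts in uterus and 1, 0, 0 and 0 counts in brain. Hsd3b6, a form found in mouse placenta, had 0 counts in all uterus libraries, against 1, 4, 5 and 5 counts in brain. Its brain mean was 4.84-fold the same uterus floor, a value that leaves out the counting error of the brain counts. The pair lies 37750 bases apart on chromosome 3. The 10 markers of ovarian follicle and corpus luteum summed to 13.8 to 17.3 CPM in uterus, against 30.7 to 37.4 CPM in brain. Of 7 tested, 2 were higher in uterus and 4 in brain, led by Foxl2 at 7.63 ± 1.19 CPM in uterus and 0.293 ± 0.0768 CPM in brain, and by Inha at 5.11 ± 0.321 CPM in uterus and 27.0 ± 3.44 CPM in brain. Fshr had 0 counts in uterus, and Lhcgr was under 1 CPM in every library. The 5 adrenal markers summed to 0.606 to 1.09 CPM in uterus, against 0.213 to 0.594 CPM in brain, with Cyp11b2 and Mrap at 0 in uterus. The one adrenal marker tested, Cyp21a1, was higher in uterus at 0.588 ± 0.218 CPM, against 0.0116 ± 0.0231 CPM in brain (SD, n = 4 each), and Cyp11b1 had 12, 5, 8 and 8 counts in uterus and 2, 0, 0 and 1 counts in brain. The part of such tissue in the members' values was not tested.

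The widest difference of the set lay in the glucocorticoid switch, where opposite enzymes led in the organs. Hsd11b2, which oxidises corticosterone to an inactive form and thereby keeps it from the mineralocorticoid receptor, lies at chr8:105518755-105523988. It had 245, 260, 189 and 331 CPM in uterus, against 0.0270, 0.138, 0.347 and 0.189 CPM in brain. The uterus values rest on 9720, 11048, 7455 and 14203 counts, against 1, 6, 15 and 8 counts in brain. All uterus libraries lay far above all brain libraries, and the log2 fold change was 10.45 ± 0.32 (edgeR adjusted p = 4.5e-10). Hsd11b2 had passed the filter on low counts through its uterus libraries alone. The log2 fold change ran from 10.00 to 11.01 over the alternative settings, and its brain side rests on few counts. Per length Hsd11b2 ranked 227 of 16046 genes in uterus, above all other members.

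Hsd11b1 (chr1:193221634-193264075), which works mainly as a reductase and regenerates active corticosterone, had 3.32, 4.33, 3.65 and 3.43 CPM in uterus, against 23.5, 25.9, 23.98 and 24.5 CPM in brain. Every brain library was above every uterus library, with a log2 fold change of -2.73 ± 0.10 (edgeR adjusted p = 1.89e-09). The ratio of Hsd11b2 to Hsd11b1 per kb of merged exon was 170, 139, 120 and 223 in uterus, against 0.00265, 0.0123, 0.0334 and 0.0179 in brain. Hsd11b2 thus exceeded Hsd11b1 in each uterus and fell below it in each brain. With the longest transcript as length the median ratio was 71.9 in uterus and 0.00703 in brain, so its size in uterus depends on the annotation and its side does not. The receptors of these hormones, from the wider lists, were both higher in brain. Nr3c2, the mineralocorticoid receptor, averaged 3.05 ± 0.571 CPM in uterus and 51.4 ± 2.996 CPM in brain. Nr3c1, the glucocorticoid receptor, averaged 79.3 ± 3.53 CPM in uterus and 145 ± 11.2 CPM in brain (SD, n = 4 each).

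**Figure D3:**
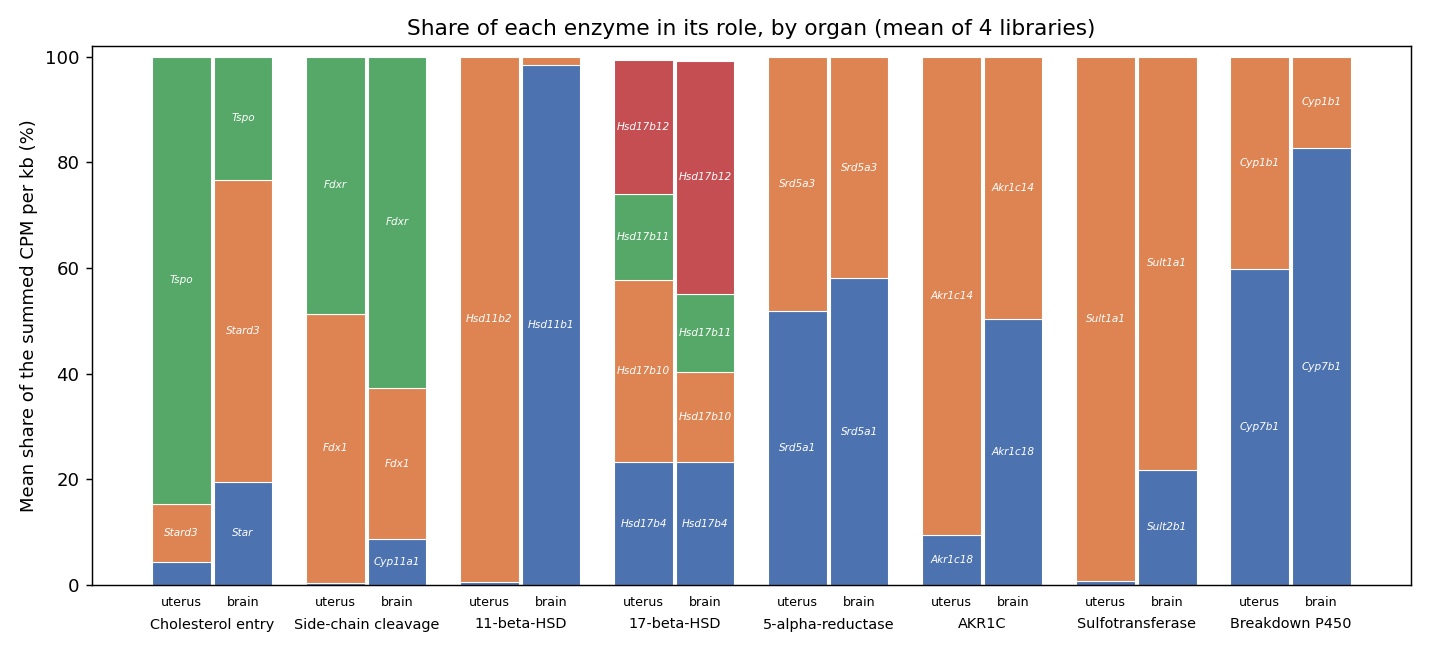
Mean share of each member in the summed CPM per kb of its role, for uterus (left bar of each pair) and brain (right bar), over 4 libraries each, with members under 1% in both organs left out. Hsd11b2 fills 99.4% of its pair in uterus and 1.62% in brain, and Tspo fills 84.7% of its role in uterus and 23.4% in brain.

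Of the 10 measured 17-beta-hydroxysteroid dehydrogenases among the members, Hsd17b4, Hsd17b10, Hsd17b11 and Hsd17b12 were above 10 CPM in every library and the other 6 were below 1 CPM in every library. Hsd17b1, which reduces estrone to estradiol, had 0.831, 0.541, 0.736 and 0.769 CPM in uterus, against 0.459, 0.784, 0.370 and 0.520 CPM in brain. The libraries overlapped, and the log2 fold change of 0.43 ± 0.29 did not pass (edgeR adjusted p = 0.19). With upper-quartile scaling it was 0.68 and passed with an edgeR adjusted p of 0.048.

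Hsd17b2, which oxidises estradiol back to estrone, had 6, 4, 4 and 2 counts in uterus and 7, 9, 12 and 12 counts in brain. Hsd17b3, the testicular form that makes testosterone, had 1, 4, 0 and 0 counts in uterus and 0 counts in every brain library. Hsd17b6, which acts on androgen metabolites, had 5 counts in uterus library 2 and 0 in all others, and shares 98.4% identity over 247 bases with Rdh9, so its counts are uncertain. Every brain library of Hsd17b2 lay above every uterus library, at 0.0983 ± 0.0427 CPM in uterus and 0.239 ± 0.0482 CPM in brain (SD, n = 4 each). Hsd17b13, a lipid droplet protein of liver, had 6, 10, 12 and 9 counts in uterus and 6, 2, 1 and 8 counts in brain. Hsd17b14, which has been described as an estradiol-oxidising enzyme in humans, had 1, 7, 12 and 10 counts in uterus and 18, 15, 8 and 7 counts in brain.

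The tested form with the widest gap between the organs was Hsd17b10, a mitochondrial enzyme of branched-chain amino acid breakdown that is also a subunit of mitochondrial RNase P. Hsd17b10 (chrX:152001845-152004442) had 57.1, 59.5, 51.9 and 58.1 CPM in uterus, against 19.1, 20.6, 21.8 and 18.6 CPM in brain. The uterus libraries stood apart above the brain libraries, with a log2 fold change of 1.50 ± 0.07 (edgeR adjusted p = 1.04e-08). Hsd17b4, the peroxisomal enzyme of fatty acid beta-oxidation that also oxidises estradiol, had 101, 103, 97.5 and 98.1 CPM in uterus, against 71.8, 71.2, 70.6 and 70.04 CPM in brain. It too was higher in every uterus, by a log2 fold change of 0.49 ± 0.04 (edgeR adjusted p = 7.85e-07), and its libraries agreed closely within each organ.

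Hsd17b11, a lipid droplet enzyme, had 59.6, 69.2, 59.4 and 79.9 CPM in uterus, against 45.4, 42.7, 41.3 and 42.5 CPM in brain. The uterus libraries were all higher, with a log2 fold change of 0.64 ± 0.09 (edgeR adjusted p = 9.28e-05). It lies 12351 bases from Hsd17b13 on chromosome 5, a neighbour that was below 1 CPM in every library. Hsd17b12, which acts in the elongation of very long chain fatty acids, was higher in brain. It had 83.7, 67.6, 80.5 and 77.3 CPM in uterus, against 99.3, 97.3, 99.4 and 86.6 CPM in brain. The organs did not overlap, and the log2 fold change was -0.31 ± 0.07 (edgeR adjusted p = 0.00281), a call lost at -0.05 with upper-quartile scaling and with library sizes alone.

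Per length, Hsd17b10 held 34.5 ± 1.38% of the family's summed level in uterus and 17.2 ± 0.946% in brain. Hsd17b12 held 25.4 ± 2.52% in uterus and 44.2 ± 1.13% in brain (SD, n = 4 each). Hsd17b4 held 23.2% in both. The share of Hsd17b1 was 0.425 ± 0.0726% in uterus and 0.444 ± 0.147% in brain.

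Both 5-alpha-reductases that were tested were higher in uterus. Srd5a1 reduces progesterone, testosterone and corticosterone and takes part in neurosteroid synthesis in brain. It had 18.02, 13.1, 28.2 and 21.5 CPM in uterus, against 10.98, 10.8, 8.82 and 9.72 CPM in brain. The organs did not overlap although uterus library 2 came close to the brain range. The log2 fold change of 1.00 ± 0.20 passed (edgeR adjusted p = 0.000965) but did not exceed 2-fold (glmTreat in edgeR, adjusted p = 0.447). An annotated transcript, Gm17108, shares 16.4% of its exon bases on the same strand.

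Srd5a3, whose product is best known for making dolichol for protein glycosylation, had 30.7, 30.8, 26.99 and 27.04 CPM in uterus, against 12.3, 11.6, 11.6 and 10.9 CPM in brain. Its libraries were tight within each organ and far apart between them, with a log2 fold change of 1.32 ± 0.08 (edgeR adjusted p = 6.22e-08). Srd5a2, the form of the prostate and male genital tract, had 2 counts in uterus library 4, 1 count in brain library 4 and 0 elsewhere. Per kb of merged exon the ratio of Srd5a3 to Srd5a1 was 0.599 to 1.47 in uterus and 0.675 to 0.826 in brain. With the longest transcript as length its median was 1.76 in uterus and 1.33 in brain, so the order of these genes within an organ is not settled.

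Of the aldo-keto reductases of family 1C, Akr1c14 was higher in uterus and varied widely there. Akr1c14 (chr13:4049011-4090688), the mouse 3-alpha-hydroxysteroid dehydrogenase that completes the conversion of progesterone to allopregnanolone and inactivates dihydrotestosterone, had 20.7, 37.3, 19.8 and 68.3 CPM in uterus, against 3.35, 3.53, 3.70 and 2.55 CPM in brain. Library 4 held the highest uterus value and libraries 1 and 3 the lowest, and all were above brain. The log2 fold change was 3.48 ± 0.41 (edgeR adjusted p = 1.71e-05). The exons of Akr1c14 overlap the annotated pseudogene Gm18857 on the same strand over 234 bases or 7.22% of their length.

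Akr1c18, the mouse 20-alpha-hydroxysteroid dehydrogenase that inactivates progesterone in the corpus luteum before birth, was low in both organs. It had 0.730, 0.659, 1.55 and 2.005 CPM in uterus, against 1.94, 1.29, 1.16 and 0.781 CPM in brain. The organs overlapped fully, and the log2 fold change of -0.06 ± 0.41 did not pass (edgeR adjusted p = 0.894). Akr1c6, a liver form, had 0 counts in all 8 libraries.

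The ratio of Akr1c14 to Akr1c18 per kb was 10.6, 21.1, 4.76 and 12.7 in uterus, against 0.642, 1.02, 1.19 and 1.22 in brain. Akr1c14 thus exceeded Akr1c18 in every uterus, while in brain the ratio lay below 1 in library 1 and above it in the other 3. Akr1c14 and Akr1c18 lie 41926 bases apart on chromosome 13. Of 4 other genes of that cluster with values in the wider lists, 3 were also higher in uterus, and Akr1c21 was not tested, at 0.244 ± 0.0644 CPM in uterus and 0.148 ± 0.0618 CPM in brain. Akr1c19 averaged 13.1 ± 2.63 CPM in uterus and 0.0522 ± 0.0394 CPM in brain. Akr1c13 averaged 3.97 ± 1.05 CPM in uterus and 0.217 ± 0.0886 CPM in brain, and Akr1c12 averaged 0.595 ± 0.146 CPM in uterus and 0.0366 ± 0.0247 CPM in brain (SD, n = 4 each). These 3 passed edgeR's test.

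The sulfotransferases, which make steroids more water-soluble, split by organ. Sult1a1, which conjugates phenols including estrogens, had 29.5, 43.3, 22.6 and 26.9 CPM in uterus, against 13.6, 11.1, 10.97 and 11.5 CPM in brain. All uterus libraries were higher, with a log2 fold change of 1.38 ± 0.18 (edgeR adjusted p = 4.75e-05). It exceeded 2-fold (glmTreat in edgeR, adjusted p = 0.0188), but not without uterus library 2, the highest, where that edgeR adjusted p was 0.0617, nor with DESeq2 (adjusted p = 0.159) or limma-voom (adjusted p = 0.130). Its exons overlap Sgf29 on the opposite strand over 61 bases.

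Sult2b1 (chr7:45729983-45784669), which conjugates pregnenolone and cholesterol, had 0.705, 0.423, 0.583 and 0.490 CPM in uterus, against 7.64, 9.92, 8.96 and 7.73 CPM in brain. The brain libraries were all higher, with a log2 fold change of -3.96 ± 0.19 (edgeR adjusted p = 1.19e-08). Its exons overlap those of Lmtk3, a gene of the opposite strand known from brain, over 243 bases or 6.15% of its length. Lmtk3 had 9.97, 9.13, 9.59 and 10.2 CPM in uterus, against 209, 263, 252 and 247 CPM in brain, so it moved with Sult2b1. The strand setting of the counting is not given in the sources used here, and reads of the pair cannot be told apart in the overlap. Per kb of merged exon, Lmtk3 averaged 1.69 ± 0.0839 CPM in uterus and 42.3 ± 4.08 CPM in brain. Sult2b1 averaged 0.139 ± 0.0309 CPM per kb in uterus and 2.17 ± 0.275 CPM per kb in brain (SD, n = 4 each). The part of Lmtk3 reads in the Sult2b1 values was not tested. Sult1e1, the estrogen sulfotransferase, had 1 count in uterus library 3 and 0 in the other 7 libraries.

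Both hydroxylases of steroid breakdown were higher in uterus. Cyp7b1, which hydroxylates dehydroepiandrosterone and oxysterols, had 16.4, 14.9, 13.7 and 15.97 CPM in uterus, against 11.4, 11.2, 11.6 and 11.2 CPM in brain. The gap was small and free of overlap, at a log2 fold change of 0.43 ± 0.08 (edgeR adjusted p = 0.000639). Cyp1b1 (chr17:79701537-79715061), whose promoter with a GC box and a GCGTG core is shown above, had 52.2, 39.2, 22.7 and 10.05 CPM in uterus, against 6.75, 6.90, 7.28 and 4.90 CPM in brain. The uterus libraries ranged 5.20-fold, from close to the brain level in library 4 to far above it in library 1. The log2 fold change was 2.26 ± 0.43 (edgeR adjusted p = 0.000607), past 2-fold in edgeR (glmTreat adjusted p = 0.00513) and not in limma-voom (treat adjusted p = 0.142). Per length Cyp1b1 held 54.1% to 18.9% of the pair over the uterus libraries, against 18.9% to 14.0% over the brain libraries.

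Spread between animals set several members apart within the uterus. The coefficient of variation over the 4 uterus libraries was 62.1% for Akr1c14, 59.6% for Cyp1b1 and 52.8% for Akr1c18, where the median gene with a mean of 1 CPM or more had 8.39%. Akr1c14 varied more than 98.7% of 13769 such genes and Cyp1b1 more than 98.6%. Srd5a1 had 31.3%, Sult1a1 29.2%, Hsd11b2 22.8% and Star 20.8%. At the other end Hsd17b4 had 2.63% in uterus and 1.09% in brain, and Stard3 had 3.62% in uterus. In brain the median gene had 6.40%, Akr1c18 had 37.5% and Tspo 20.6%.

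The uterine libraries were not ordered alike by these genes. Library 4 was highest for Akr1c14, Akr1c18 and Hsd11b2 and lowest for Cyp1b1. Library 3 was highest for Srd5a1 and Star and lowest for Hsd11b2, Akr1c14 and Sult1a1. Library 2 was highest for Sult1a1 and lowest for Srd5a1 and Akr1c18. The 8 markers of uterine glands summed to 238, 1210, 405 and 93.4 CPM in uterus libraries 1 to 4, with Prss29 at 46.4, 559, 123 and 2.28 CPM. Prss29, Spink1 and Prss28 were highest in library 2 and lowest in library 4, Foxa2, Lif and Ttr were highest in library 3, and Cxcl15 and Aldh1a1 were highest in library 4. The part of these markers in the spread of the members was not tested. Uterine epithelium markers varied less, from 677 to 821 CPM.

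**Figure D4:**
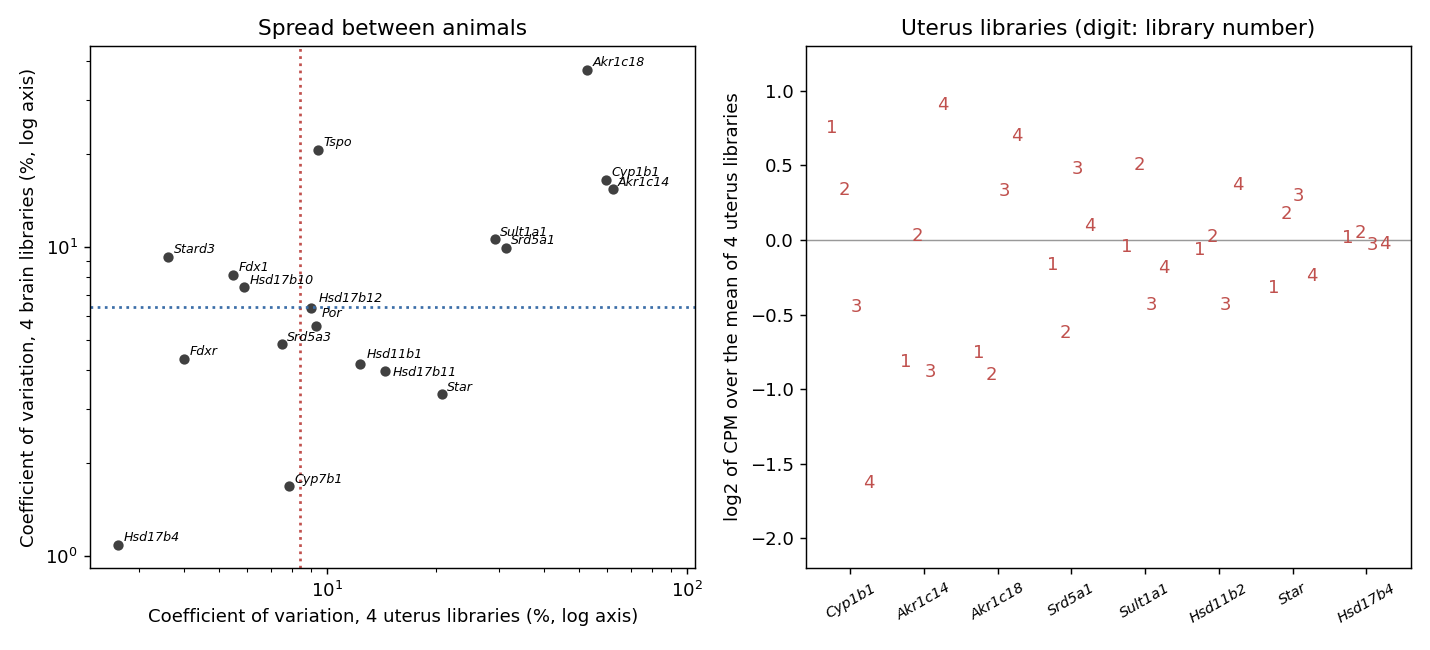
Left, coefficient of variation of members with a mean of 1 CPM or more in both organs, over 4 uterus libraries (horizontal) and 4 brain libraries (vertical), both on log axes, with dotted lines at the medians of all genes with a mean of 1 CPM or more in that organ (8.39% in uterus, 6.40% in brain). Right, log2 of CPM over the mean of the uterus libraries for 8 members, each digit a library, where Cyp1b1 and Akr1c14 spread widest, with library 4 at opposite ends, and Hsd17b4 lies close to 0.

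The wider pathway, taken from 6 lists of genes that are not members, held 57 tested genes, of which 34 were higher in uterus and 16 in brain by edgeR's test, with a median log2 fold change of 1.13. Of all tested genes 43.5% passed as higher in uterus and 43.6% as higher in brain, and the counts below stand against these shares. Among other steroid enzymes and cofactors 11 of 18 were higher in uterus and 5 in brain. Besides Akr1c19, the uterus held more Akr1d1, the 5-beta-reductase, at 2.98 ± 0.791 CPM in uterus and 0.0173 ± 0.0221 CPM in brain. It also held more Dhrs9, a retinol and steroid dehydrogenase, at 7.25 ± 4.39 CPM in uterus and 0.106 ± 0.0406 CPM in brain. Sult4a1, a brain sulfotransferase with no settled substrate, averaged 1.55 ± 0.748 CPM in uterus and 371 ± 24.8 CPM in brain. Hsd17b7, an enzyme of estradiol and cholesterol synthesis, averaged 7.57 ± 1.21 CPM in uterus and 26.2 ± 1.65 CPM in brain, and Hsdl1 averaged 27.9 ± 1.39 CPM in uterus and 58.6 ± 2.73 CPM in brain.

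Of the 6 tested genes in the list of oxysterol and cholesterol side-chain enzymes, 3 were higher in uterus, 2 in brain (Cyp46a1 and Cyp51) and Cyp27b1 in neither. Cyp46a1, the neuronal enzyme that clears cholesterol from brain, averaged 5.46 ± 0.966 CPM in uterus and 165 ± 8.39 CPM in brain. Cyp27a1, the sterol 27-hydroxylase that shares the ferredoxin system with Cyp11a1, averaged 95.5 ± 11.1 CPM in uterus and 11.9 ± 1.41 CPM in brain. Sterol transport and supply had 8 of 14 genes higher in uterus and 3 in brain. Scarb1, the receptor that takes up cholesterol esters from high-density lipoprotein, averaged 123 ± 11.4 CPM in uterus and 23.7 ± 2.23 CPM in brain. Soat1, which stores cholesterol as esters, averaged 159 ± 21.8 CPM in uterus and 52.0 ± 1.75 CPM in brain. Vdac1, the mitochondrial channel described as a partner of Tspo, went the other way at 225 ± 5.41 CPM in uterus and 481 ± 11.4 CPM in brain (SD, n = 4 each).

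Of 7 tested regulators of steroidogenesis 5 were higher in uterus and 1 in brain. Nr5a2, a nuclear receptor that drives steroid enzymes in the ovary, averaged 12.3 ± 1.03 CPM in uterus and 0.266 ± 0.0562 CPM in brain, while Nr5a1, the regulator of gonad and adrenal, did not pass the filter on low counts. Of 6 carriers and exporters 4 were higher in uterus and 2 in brain. Slc10a6, a transporter of steroid sulfates, averaged 8.91 ± 2.52 CPM in uterus and 0.0183 ± 0.0225 CPM in brain. Slco1c1, a carrier of the blood-brain barrier, averaged 0.268 ± 0.0856 CPM in uterus and 72.7 ± 2.96 CPM in brain. The 6 steroid receptors split evenly. Esr1 averaged 344 ± 28.4 CPM in uterus and 5.37 ± 0.352 CPM in brain, and Pgr averaged 195 ± 48.1 CPM in uterus and 30.5 ± 4.56 CPM in brain (SD, n = 4 each).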

How the data were processed

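RNA from 4 uteri and 4 brains was counted per gene. Per the submitters' processing notes, FastQC, HISAT2 2.0.3, featureCounts and edgeR were used with GRCm38.p5; the annotation, strand setting and treatment of multi-mapped reads were not given in the sources used here. What the authors deposited is 1 table of raw counts per gene, as whole numbers without normalization, for 19884 genes.

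From these counts, CPM was computed with TMM factors (1.07 to 1.11 in uterus, 0.907 to 0.924 in brain). The filter filterByExpr, by organ, left 16074 genes to test. Uterus was compared with brain over all 8 libraries by the two-sided edgeR quasi-likelihood F test and by glmTreat against 2-fold, with Benjamini-Hochberg adjustment over all tested genes at 0.05 and no term for animal, since the labels do not say that a number marks 1 mouse. Deviations of same-numbered libraries correlated at -0.048 to 0.083. The p-values set the difference between the organs against the spread between libraries of an organ, from animals of 1 stage. Levels per kb used the merged exons of GENCODE M21 on GRCm38, matched by gene identifier, and copies of transcripts were searched with BLAST+ 2.17.0 at 98% identity over at least 150 bases. A limit for 0 counts is 3 counts over the 4 libraries of an organ together. The procedure was tested on simulated data.

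Tools were R 4.3.3, edgeR 4.0.16, limma 3.58.1, DESeq2 1.42.0, Python 3.11.15 and matplotlib 3.10.9. The settings also tried were scaling by RLE, upper quartile or library size, no filter, a filter of 1 CPM in 4 libraries, a replicate block, DESeq2, limma-voom, a threshold of 0.01, the longest transcript as length, and leaving out each library in turn. Leaving out uterus library 4 and brain library 1 together was added after seeing the data. By Pearson correlation of log2 CPM these were the ones farthest from the others of their organ. The members and lists were chosen with earlier results of these data known. Every member with a row is named. From each wider list the rule took up to 3 called genes per direction ranked by size of change and at 1 CPM or more. Of these the text gives only some, which are not always the largest. Other genes were named after their values were seen. Some genes of the wider lists are not reported here.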

Additional observations from a re-analysis of the deposited data

Results flagged for a closer look

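Among 61 sets of 4 libraries, 8 held 1 library far from the other 3, by the gap to the nearest library over the whole range against Dixon's critical value for 4 samples. Chance flags about 1 in 20 such sets, and 6 of the 8 rest on 1 to 5 counts in a single library. The gap was 1.0 for Hsd3b1 in uterus library 1 and in brain library 1, for Hsd17b6 in uterus library 2, for Srd5a2 in uterus library 4 and in brain library 4, and for Sult1e1 in uterus library 3, where all other libraries of the organ had 0 counts. Stard3, the endosomal relative of Star, was lowest in brain library 1 at 29.3 CPM, with 34.8 to 35.9 CPM in the other brain libraries, a gap of 0.831. Hsd17b12, the enzyme of fatty acid elongation, was lowest in brain library 4 at 86.6 CPM, with 97.3 to 99.4 CPM in the others, a gap of 0.84.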

How the results depend on the processing

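With upper-quartile scaling and with library sizes alone, 3 members were higher in brain, against 6 with TMM. With no filter on low counts 5 members exceeded 2-fold in brain, against 3, since Cyp19a1 and Hsd3b6 were then tested. Both had 0 counts in uterus. Over 2-fold in either direction were 8494 of 18990 tested genes without the filter, against 7922 of 16074 with it. Upper-quartile scaling and library sizes alone put the all-gene median at 0.268 and 0.27 on the log2 scale, and turned the sign of 3 members without a call under TMM: Star (0.0555 and 0.0609), Por (0.243 and 0.246) and Akr1c18 (0.191 and 0.192). Without 1 library, Por ranged from -0.0644 to 0.0459 and Akr1c18 from -0.383 to 0.210, both signs included, and without uterus library 4 and brain library 1 together Por was 0.00672. The cause was not tested. The RLE scaling, DESeq2, limma-voom and the 0.01 threshold left all 22 member calls as they were, and so did the replicate block, with 13846 genes called, against 13989. Of the 10 members past 2-fold, 9 remained with DESeq2 (without Sult1a1) and 8 with limma-voom (without Sult1a1 and Cyp1b1). Low counts limit 12 members to statements about their floor, and the excess of counts of 2 over counts of 1 is not allowed for in that floor.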
